A study of Homo sapiens with 6 samples.

Results

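The collagen gene family was examined in U87 cells, a human glioblastoma cell line, with and without knockdown of PRMT6. Members were all genes of the deposited table whose symbol reads COL, a number, A and a number, which gave 44 of 60612 genes. The series compared 3 NC libraries, from cells given a scramble shRNA by lentivirus, with 3 shPRMT6 libraries, from cells given a PRMT6 shRNA the same way. Both groups were grown in the same medium with serum, so they share the lentiviral transduction and the culture, and the study's methods describe the 3 libraries of each group as independent replicates. U87 is a long-cultured line rather than tumor tissue, and which of the study's PRMT6 shRNAs was sequenced is not given in the sources used here. PRMT6, the arginine methyltransferase targeted, had 9.33, 7.97 and 7.19 CPM (counts scaled to library size with trimmed mean of M-values, TMM, factors) in NC and 3.57, 4.58 and 5.24 CPM in shPRMT6, a log2 fold change of -0.87 (SE 0.187, edgeR adjusted p = 0.0225). That fall no longer passed the threshold without NC 1 (adjusted p = 0.0613), without shPRMT6 1 (0.0588) or without shPRMT6 2 (0.0713).

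Collagens are proteins of the extracellular matrix in which 3 α chains wind into a triple helix, and each gene encodes one α chain. Fibrillar collagens, such as types I and V, form the tensile fibers of connective tissue, type IV forms the sheet-like network of basement membranes, type VI forms beaded filaments, and the fibril-associated collagens with interrupted helices (FACIT) decorate fibers. Normal brain tissue holds little fibrillar collagen outside vessels and meninges, whereas glioma cells of mesenchymal character often express it in culture. Chains are hydroxylated, glycosylated and folded in the endoplasmic reticulum before export, and are trimmed and cross-linked outside the cell.

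Libraries held between 56388161 and 75887696 counts in NC and between 61805330 and 67630740 in shPRMT6. The mesenchymal markers VIM and CD44 were abundant in every library, whereas the 5 glioma and neural markers were mixed. S100B had no count, SOX2 had at most 26 counts and GFAP at most 60, while OLIG2 had 120 to 200 counts and NES lay at 38.3 to 45.7 CPM. Of the 2 genes listed as deleted in U87, CDKN2A had no more than 2 counts in any library. The other, MTAP, had 22 to 33 counts in NC and 10 to 25 in shPRMT6, or 0.16 to 0.43 CPM, and did not pass (adjusted p = 0.338). Markers of other cell types gave no sign of leukocytes by PTPRC, CD3E and AIF1 (0 to 4 counts). CD68, however, was present at 144 to 316 CPM, and 81.7% of its exon bases are shared with AC016876.2 on the same strand. The CD68 counts may therefore not be those of CD68 alone. Of the 5 fibroblast markers, THY1 had 0 to 4 counts, DCN lay at 18.6 to 28.5 CPM, and LUM rose from 5.60 to 5.93 CPM in NC to 7.65 to 10.6 CPM in shPRMT6 (log2 fold change 0.67, adjusted p = 0.0257), while FAP and PDGFRB did not pass. Of the endothelial markers, CDH5 had 0 to 4 counts, VWF had 0 to 47, and PECAM1 lay at 2.55 to 3.24 CPM in NC and 3.66 to 5.23 CPM in shPRMT6 (adjusted p = 0.0544). The part of these markers in the collagen values was not tested. Since bulk RNA was sequenced, fewer cells expressing a gene and less RNA per cell cannot be told apart.

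The collagens differed greatly in level. The deposited FPKM are fragments scaled to gene length and sequencing depth, which allows a rough comparison of levels between genes. For the collagens with enough counts to check, the length behind FPKM roughly followed all annotated exons of a gene, not 1 transcript. COL13A1 was off that relation, with an implied length 2.00 times its exon bases, beside 1.18 times for COL4A4. COL6A2 had the highest mean FPKM over the 6 libraries at 165, followed by COL6A1 at 134, COL1A2 at 94.4, COL1A1 at 68.6 and COL6A3 at 59.1. The same 5 genes led when CPM were divided by the length of the longest annotated transcript instead, but COL1A2 then moved to rank 2 and COL6A3 to rank 4. In all, 15 members averaged 1 FPKM or more, and 23 had at least 10 counts in every library. The spread between NC libraries separated COL6A2 (166 to 180 FPKM) from COL6A1 (140 to 151 FPKM) and both from COL1A2 (81.4 to 85.2 FPKM), whereas COL1A1 (61.2 to 70.1 FPKM) and COL6A3 (42.2 to 66.1 FPKM) overlapped. That spread does not cover the choice of length. Per kilobase of the longest transcript, COL1A2 (202 CPM) lay slightly above COL6A1 (198 CPM).

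**Figure D1:**
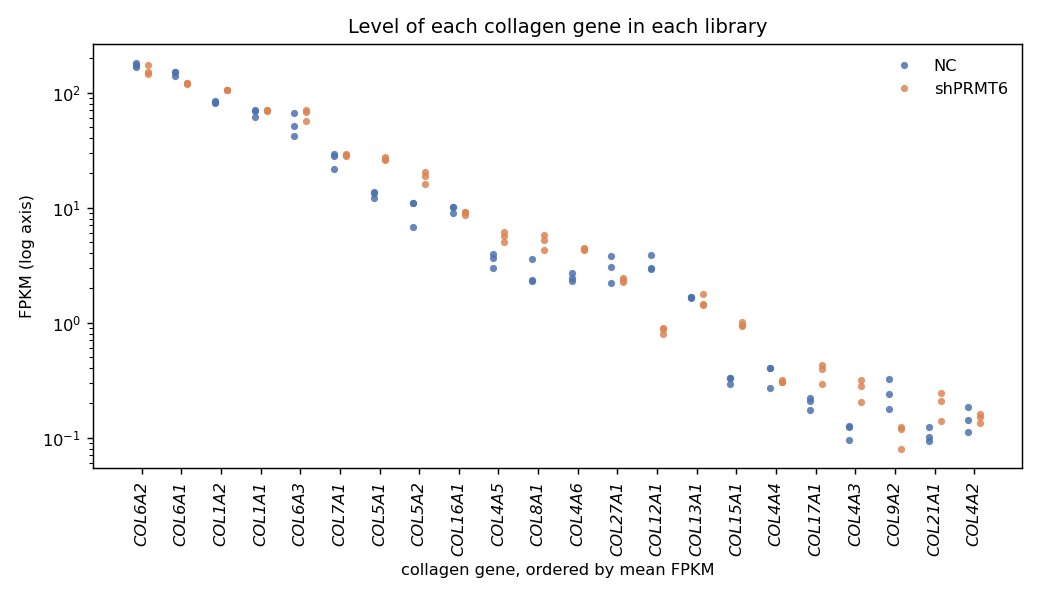
FPKM on a log axis for the 22 collagen genes averaging 0.1 FPKM or more, one point per library, NC in blue and shPRMT6 in orange. Levels run from 165 for COL6A2 down to 0.15 for COL4A2, and the groups stand clearly apart for COL5A1, COL12A1 and COL15A1.

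Of the 44 members, 17 were not tested because their counts were too low. COL23A1, COL9A1, COL2A1, COL26A1, COL6A5 and COL6A6 had no count in any library, which, as far as counting error goes, allows up to 3 counts, or 0.0394 to 0.0536 CPM. The other 11 (COL10A1, COL28A1, COL11A2, COL22A1, COL25A1, COL11A1, COL9A3, COL4A1, COL20A1, COL19A1 and COL24A1) had counts in at least 1 library, with 30 the highest. COL2A1, the collagen of cartilage, was thus not detectable at this depth, and COL3A1, which accompanies type I in many connective tissues, had 4 to 18 counts. Low counts need care here, because every library had more genes at 4 counts (1240 to 1399) than at 3 (398 to 421) or at 5 (225 to 269), so they may not be counts of independent fragments and the limit of 3 counts may then be too low. The cause of that excess was not tested.

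Of the 27 members tested, 11 changed in shPRMT6, of which 9 rose and 2 fell. That is 40.7% of the members tested, beside 18.6% of all 18106 genes tested, and by direction the background was 9.51% for a rise and 9.06% for a fall. Among genes averaging 1 FPKM or more the background was 24.8%, and 8 of the 15 collagens at that level changed. The median log2 fold change of the tested members was 0.33, against -0.01 for all genes tested, and 19 of the 27 had a positive value. The median was 0.12 for the 15 members averaging 1 FPKM or more and 0.69 for the 12 below that level. The groups did not overlap for 14 of the 27 members, beside 40.2% of all genes tested. COL14A1, whose place in the test came only from its shPRMT6 counts, is among these 14, the 19 positive values and the 12 low-level members. It therefore also enters the medians of 0.33 and 0.69, and nothing is read from its part in these values. COL5A3 (4, 37 and 0 counts in NC), COL8A2 (30, 0 and 12) and COL3A1 (4, 18 and 8) also needed shPRMT6 counts to enter the test. These genes are likewise among the 19 positive values and the 12 low-level members, and nothing is read from their part. Under the study's own rule, an absolute log2 fold change above 1 with an unadjusted p under 0.05, 6 members passed (COL5A1, COL12A1, COL15A1, COL4A3, COL9A2 and COL14A1), beside a background of 5.92%. COL14A1 entered the test only through its shPRMT6 counts and COL9A2 missed the adjusted threshold, so nothing is read from that number. The number of changed members was 7 without shPRMT6 2 (25% of those tested, beside 9.25% of all genes tested). It was 6 with limma on unfiltered log2(FPKM + 1) (13.6%, beside 1.77%). At an adjusted p under 0.01 it was 6 of 27, beside 1320 of 18106 genes.

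**Figure D2:**
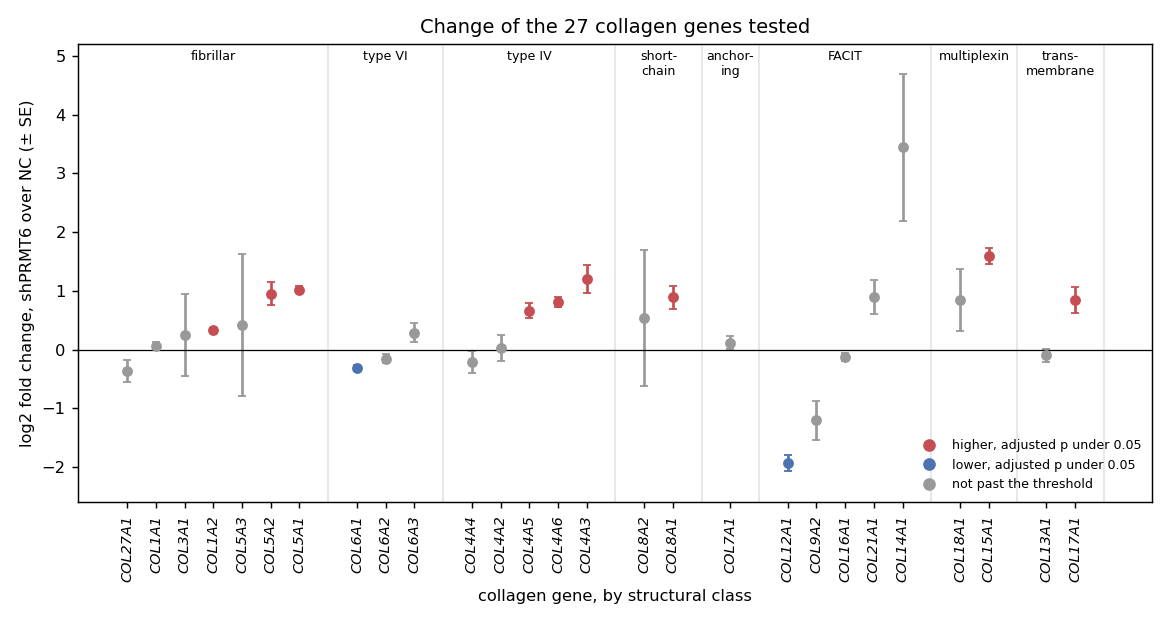
Log2 fold change of shPRMT6 over NC with its standard error for the 27 collagen genes tested, grouped by structural class (FACIT, fibril-associated collagens with interrupted triple helices). Red points rose, blue points fell and gray points did not pass an adjusted p of 0.05. COL12A1 has the lowest value, at -1.93, and COL14A1 the highest, at 3.44, with a wide error.

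COL12A1 showed the greatest change among the members with at least 10 counts in every library. It encodes the chain of type XII collagen, a FACIT collagen that sits on type I fibers, and lies on chromosome 6 at chr6:75084326-75206051 on the minus strand (GRCh38, GENCODE 29). COL12A1 had 43.8, 57.6 and 43.5 CPM in NC and 11.7, 13.4 and 12.96 CPM in shPRMT6. Every shPRMT6 library was thus below every NC library by a wide margin. The level fell to 26.3% of NC (log2 fold change -1.93, SE 0.137, edgeR adjusted p = 0.000728), and the call was kept in all 16 alternative fits. COL12A1 is one of the genes the study displayed from these same libraries, so its fall is not independent of that choice.

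The promoter of COL12A1 is shown together with 1 of the 2 that RefSeq lists for COL5A1 and that of COL4A5. In that order, these members mark the fall, the clearest rise of an abundant chain, and the rise of a pair with adjoining starts. The sequences come from RefSeq (GRCh38.p14), run 5′ to 3′ on the strand of the gene and end at the base before the transcription start, except for COL5A1, where 29 bases that GENCODE 29 places in an exon were left out. Capitals mark CCAAT and GGGCGG, searched on both strands (so also as ATTGG and CCGCCC), and TATAAA was searched the same way. None of these motifs contains another.
COL12A1, chr6:75206054-75206303, minus strand: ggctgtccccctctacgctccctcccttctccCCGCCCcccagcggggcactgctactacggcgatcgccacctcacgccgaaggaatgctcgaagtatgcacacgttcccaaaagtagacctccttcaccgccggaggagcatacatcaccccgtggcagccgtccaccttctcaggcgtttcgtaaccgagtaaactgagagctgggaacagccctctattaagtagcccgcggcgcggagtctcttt
COL5A1, chr9:134641553-134641773, plus strand: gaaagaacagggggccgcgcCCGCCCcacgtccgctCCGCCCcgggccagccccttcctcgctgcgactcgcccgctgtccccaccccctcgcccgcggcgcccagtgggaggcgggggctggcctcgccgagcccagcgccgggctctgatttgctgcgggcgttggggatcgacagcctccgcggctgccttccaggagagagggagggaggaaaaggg
COL4A5, chrX:108439588-108439837, plus strand: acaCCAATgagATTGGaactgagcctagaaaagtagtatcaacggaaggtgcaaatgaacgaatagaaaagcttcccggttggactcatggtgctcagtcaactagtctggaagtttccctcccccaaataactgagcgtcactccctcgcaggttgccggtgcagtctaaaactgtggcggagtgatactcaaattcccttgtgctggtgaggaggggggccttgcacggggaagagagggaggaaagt
The COL12A1 stretch held 1 GGGCGG match, the COL5A1 stretch 2 such matches, and the COL4A5 stretch 2 CCAAT matches. In the 250 bases before the start, GGGCGG was present in 42.6% of the 35116 RefSeq promoters, CCAAT in 32.0% and TATAAA in 10.7%. Over the 44 promoters listed for 32 members, the shares were 54.5%, 27.3% and 18.2%. A match is a description of the letters and not of a factor bound there. The 12 members not in that table are COL1A1, COL1A2, COL2A1, COL3A1, COL5A2, COL6A1, COL6A5, COL8A1, COL9A3, COL14A1, COL20A1 and COL22A1.

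Among the fibrillar collagens, 3 of the 7 chains tested rose and none fell, beside backgrounds of 9.51% and 9.06% over all genes, and with so few chains nothing is read from the share. COL5A1 encodes the main chain of type V collagen, which is built into type I fibers and limits their width, and lies at chr9:134641774-134844843 on the plus strand. COL5A1 had 162, 181 and 177 CPM in NC and 348, 344 and 360 CPM in shPRMT6. The groups were far apart and each was tight, giving a log2 fold change of 1.02 (SE 0.061, adjusted p = 0.000472). COL5A2, its partner chain in type V, had 59.0, 94.6 and 93.7 CPM in NC and 138, 163 and 176 CPM in shPRMT6. NC 1 was low for COL5A2 within its group, yet the groups did not overlap. The change was 0.95 on the log2 scale (SE 0.195, adjusted p = 0.0195), and it did not pass without shPRMT6 2 or without shPRMT6 3.

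Type I collagen, the main fiber of most connective tissues, combines the chains of COL1A1 and COL1A2. COL1A2 (chr7:94394561-94431232, plus strand) had 1057, 1070.4 and 1084 CPM in NC and 1346, 1348 and 1351 CPM in shPRMT6. The difference was small and the libraries of each group nearly coincided, with a log2 fold change of 0.33 (SE 0.041, adjusted p = 0.00342). COL1A1 had 662, 740.1 and 742 CPM in NC and 742, 754 and 754 CPM in shPRMT6. The groups overlapped and the value of 0.07 (SE 0.059) did not pass the threshold (adjusted p = 0.479). After trends on GC content and length were removed, COL1A1 was at 0.18 with an adjusted p of 0.0481, which is past the threshold. The remaining fibrillar chains did not pass: COL27A1 had a value of -0.37 and ranged from 37.1 to 63.6 CPM in NC alone, and COL3A1 and COL5A3 had at most 37 counts.

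The beaded filament collagen type VI made up most of the family's counts, and 1 of its 3 tested chains changed (background 18.6%). COL6A1 (chr21:45981737-46005050, plus strand) had 895, 951 and 943 CPM in NC and 753, 745 and 755 CPM in shPRMT6. All 3 shPRMT6 libraries were below all NC libraries, and the level fell to 80.8% of NC (log2 fold change -0.31, SE 0.046, adjusted p = 0.00673). With the trends on GC content and length removed, the value was -0.17 and did not pass (adjusted p = 0.0987). The longest annotated transcript of COL6A1 has a GC content of 63.5%. The 2245 genes at or above 60% by that measure had median log2 values, relative to the NC mean, of -0.11, -0.14 and -0.15 in shPRMT6. In NC these medians were 0.04, -0.09 and 0.07. The part of that shift in the fall of COL6A1 was not tested beyond this correction.

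COL6A2, which lies downstream of COL6A1 on chromosome 21 in the same direction, had 1065, 1093 and 1127 CPM in NC and 949, 915 and 1092 CPM in shPRMT6. Its groups overlapped and its value of -0.15 (SE 0.075) did not pass (adjusted p = 0.216). COL6A3, the longest chain of the trimer, had 986, 1528 and 1164 CPM in NC and 1551, 1311 and 1630.0 CPM in shPRMT6. The NC libraries were spread widely, with NC 2 inside the shPRMT6 range, and the value of 0.29 (SE 0.167) did not pass (adjusted p = 0.285) except without NC 2 (0.48, adjusted p = 0.0490). Over the 3079 genes with at least 8000 bases of exons, the median log2 value relative to the NC mean was -0.08 in NC 1 and 0.08 in NC 2, the same order as for COL6A3. That median was 0.003 in NC 3 and 0.02, 0.04 and 0.07 in shPRMT6. With trends on GC content and length removed, COL6A3 was at 0.34 and did not pass (adjusted p = 0.140). The part of gene length in the COL6A3 values was not tested beyond this correction.

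Type IV collagen chains are encoded by 3 pairs of genes that lie head to head, each pair with its starts close together. On chromosome X, COL4A6 (minus strand) and COL4A5 (plus strand) have RefSeq starts 379 bases apart, and both rose. COL4A5 had 42.2, 55.6 and 51.3 CPM in NC and 86.8, 79.1 and 69.9 CPM in shPRMT6 (log2 fold change 0.66, SE 0.127, adjusted p = 0.0156), with no overlap. COL4A6 had 25.7, 29.8 and 26.9 CPM in NC and 49.3, 47.4 and 48.2 CPM in shPRMT6, with no overlap and little spread (0.81, SE 0.081, adjusted p = 0.00187). COL4A6 passed in all 16 alternative fits, whereas COL4A5 did not pass without NC 3, without shPRMT6 1 or without shPRMT6 2.

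On chromosome 2, COL4A4 (minus strand) and COL4A3 (plus strand), whose starts are 418 bases apart, encode chains of the basement membrane of the kidney glomerulus. COL4A3 had 1.06, 1.35 and 1.31 CPM in NC and 3.42, 2.18 and 3.01 CPM in shPRMT6. The groups did not overlap (log2 fold change 1.21, SE 0.239, adjusted p = 0.0171), although the call was lost without NC 1, NC 3, shPRMT6 1 or shPRMT6 3. COL4A4 had 3.27, 4.79 and 4.74 CPM in NC and 3.63, 3.80 and 3.65 CPM in shPRMT6, so its groups overlapped and its value of -0.21 (SE 0.187) did not pass (adjusted p = 0.496). In this pair, 120 exon bases of COL4A3 (1.32%) overlap a gene on the other strand, and the sources used here do not say that counting used strand. The difference between the changes of the 2 chains was not tested.

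On chromosome 13, COL4A1 and COL4A2, the chains of the basement membrane network found in most tissues, have starts 126 bases apart. COL4A2 was low in every library, with 198 to 243 counts in NC and 213 to 237 in shPRMT6, and its value of 0.03 (SE 0.220) did not pass (adjusted p = 0.951). COL4A1 had 8, 0 and 0 counts in NC and 4, 4 and 4 in shPRMT6, so no change was detectable at this depth and its ratio to COL4A2 was not computed. The length used for COL4A2 covers 19293 bases of exons, against 6494 for its longest transcript, and no transcript can be told apart in these counts.

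The short-chain collagen COL8A1, a component of vessel walls and of the membrane under the corneal endothelium, had 25.9, 26.1 and 39.7 CPM in NC and 47.7, 57.9 and 64.3 CPM in shPRMT6. No NC library reached the shPRMT6 range, and the change was 0.89 on the log2 scale (SE 0.199, adjusted p = 0.0258). The call was lost without NC 1, NC 2, shPRMT6 2 or shPRMT6 3. Its partner COL8A2 had 0 to 30 counts and did not pass (adjusted p = 0.796). COL7A1, the anchoring fibril collagen of skin, was the most abundant chain outside types I and VI at 27.5 FPKM, with 289, 381 and 366 CPM in NC and 375, 367 and 384 CPM in shPRMT6. Its value of 0.12 (SE 0.106) did not pass (adjusted p = 0.492).

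COL15A1 encodes a multiplexin, a basement membrane proteoglycan whose end can be released as a fragment, and was low in level but showed the largest rise that passed the test. COL15A1 had 2.66, 2.62 and 2.32 CPM in NC and 8.01, 7.34 and 7.53 CPM in shPRMT6, from 145 to 199 counts and from 452 to 510 counts. Each shPRMT6 library was well above each NC library (3.01-fold, log2 fold change 1.59, SE 0.132, adjusted p = 0.00114), and the call was kept in the 14 alternative fits that tested it. An antisense gene shares 137 exon bases (2.06%) with COL15A1. COL18A1, the other multiplexin, had 17 to 65 counts and a value of 0.84 that did not pass (adjusted p = 0.317), and 16.4% of its exon bases overlap SLC19A1 on the other strand.

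COL17A1, a transmembrane collagen that holds epithelial cells to the basement membrane, had 1.91, 1.46 and 1.75 CPM in NC and 3.25, 3.54 and 2.42 CPM in shPRMT6. The groups did not overlap (log2 fold change 0.85, SE 0.219, adjusted p = 0.0408), but the call was lost without NC 1, NC 2, NC 3, shPRMT6 1 or shPRMT6 2, each left out in turn. Of the 4 epithelial markers, KRT5 had no count, EPCAM (22 to 61 counts) and KRT14 (0 to 34 counts) had overlapping groups, and CDH1 fell (31 to 58 counts in NC and 4 to 16 in shPRMT6, adjusted p = 0.0428). COL13A1, the other transmembrane collagen tested, had 19.1 to 19.9 CPM in NC and 16.8 to 21.0 CPM in shPRMT6 and did not pass (adjusted p = 0.615).

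**Figure D3:**
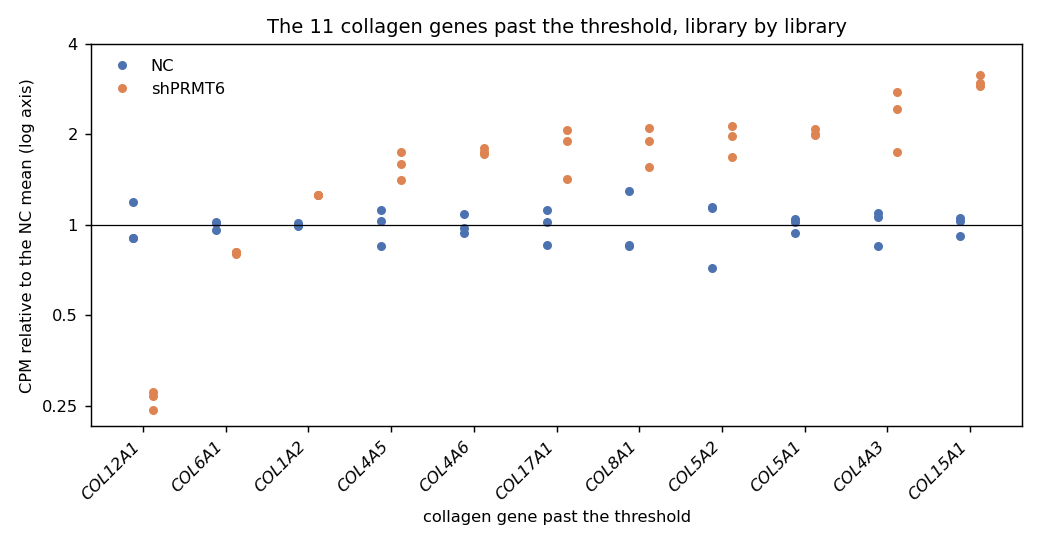
CPM of the 11 collagen genes past the threshold in each library, divided by the NC mean, on a log axis, with NC in blue and shPRMT6 in orange. COL12A1 and COL6A1 lie below 1 in every shPRMT6 library and the other 9 above it, with COL15A1 the farthest up at 3.01 times the NC mean on average.

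The other FACIT collagens did not follow COL12A1 past the threshold. COL16A1, a further FACIT member, had 99.2, 112 and 111 CPM in NC and 94.2, 100.4 and 99.75 CPM in shPRMT6, with a value of -0.13 (SE 0.070, adjusted p = 0.254). COL9A2, a chain of cartilage type IX collagen, had 56 to 93 counts in NC and 26 to 42 in shPRMT6, without overlap, and did not pass (-1.20, SE 0.337, adjusted p = 0.0525). COL21A1 had 54 to 59 counts in NC and 79 to 126 in shPRMT6, also without overlap (0.89, SE 0.288, adjusted p = 0.0809). COL14A1 had 5, 0 and 0 counts in NC and 30, 16 and 15 in shPRMT6. It passed the filter on low counts only through shPRMT6, so a difference was built into its being tested, and it did not pass (adjusted p = 0.110).

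The family total was then compared. Summed over all 44 members, collagen CPM were 5487, 6418 and 6056 in NC and 6573, 6331 and 6878 in shPRMT6. The groups overlapped, with a mean of 5987 ± 469 (SD, n = 3) in NC and 6594 ± 274 in shPRMT6, which is 10.1% higher (exact two-sided permutation p = 0.2, where 0.1 is the smallest p that 3 against 3 allows). Collagens took 0.599% of all counts in NC and 0.658% in shPRMT6. Summed FPKM differed by 3.67% (exact permutation p = 0.6). The family total was thus not shown to differ between the groups.

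The make-up of the total was compared next. Type VI chains took 53.7%, 55.6% and 53.4% of the collagen counts in NC and 49.5%, 46.9% and 50.5% in shPRMT6. Type V chains, the sum of COL5A1 and COL5A2, took 4.03%, 4.29% and 4.47% in NC and 7.40%, 8.001% and 7.79% in shPRMT6. Neither share overlapped between the groups. The type I share did overlap (31.3%, 28.2% and 30.2% against 31.8%, 33.2% and 30.6%), as did that of COL7A1. Shares of a total must sum to the whole, so a rise of one chain lowers the share of the rest.

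**Figure D4:**
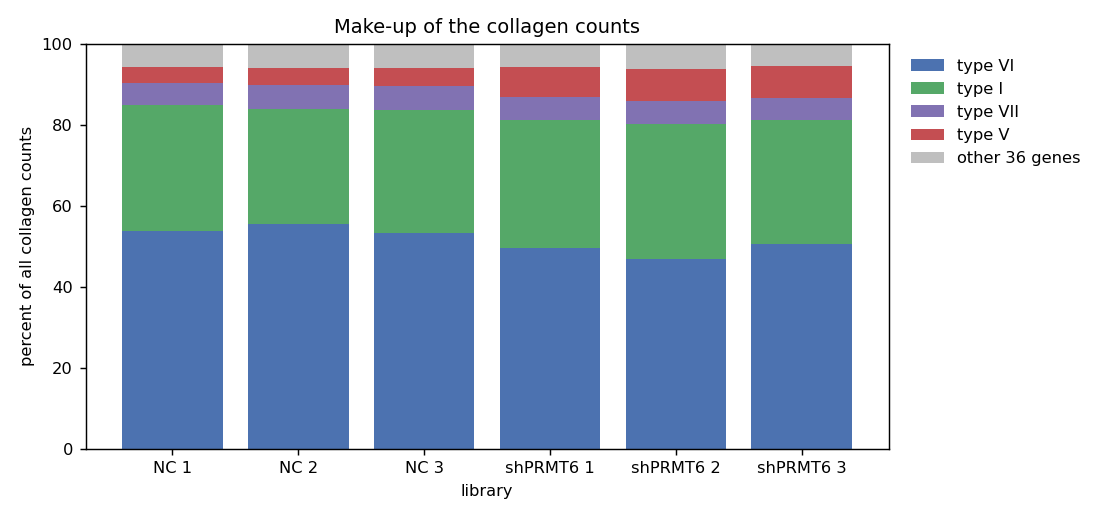
Percent of all collagen counts taken by types VI, I, VII and V and by the other 36 genes, as stacked bars from 0 to 100 for each library. The type V band is thicker in the 3 shPRMT6 libraries (7.40% to 8.001%) than in the 3 NC libraries (4.03% to 4.47%).

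Chains of one collagen are assembled together, so the ratio of partner chains was compared in each library as a log2 ratio of FPKM, for 5 pairs. The COL1A2 to COL1A1 ratio was 1.33, 1.20 and 1.22 in NC and 1.51, 1.49 and 1.49 in shPRMT6, without overlap. The log2 difference was 0.26 (exact permutation p = 0.1, the smallest possible, and 0.167 after Benjamini-Hochberg adjustment over the 5 pairs). With trends on GC content and length removed, the log2 fold changes were much closer, at 0.25 for COL1A2 (GC content 41.7%) and 0.18 for COL1A1 (61.1%). Type I molecules generally hold more α1 than α2 chains, and here the α2 message exceeded the α1 message per length in all 6 libraries. The COL6A3 to COL6A1 ratio was 0.301, 0.439 and 0.337 in NC and 0.562, 0.480 and 0.589 in shPRMT6 (log2 difference 0.61), and COL6A2 to COL6A1 differed by 0.15, both without overlap and with the same exact permutation p of 0.1. The COL5A2 to COL5A1 ratio hardly differed (-0.04, exact permutation p = 0.8) with a wide spread from 0.556 to 0.808 in NC. The COL4A6 to COL4A5 ratio differed by 0.15 with overlapping groups (exact permutation p = 0.3). No pair can pass 0.05 with 3 libraries a group.

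**Figure D5:**
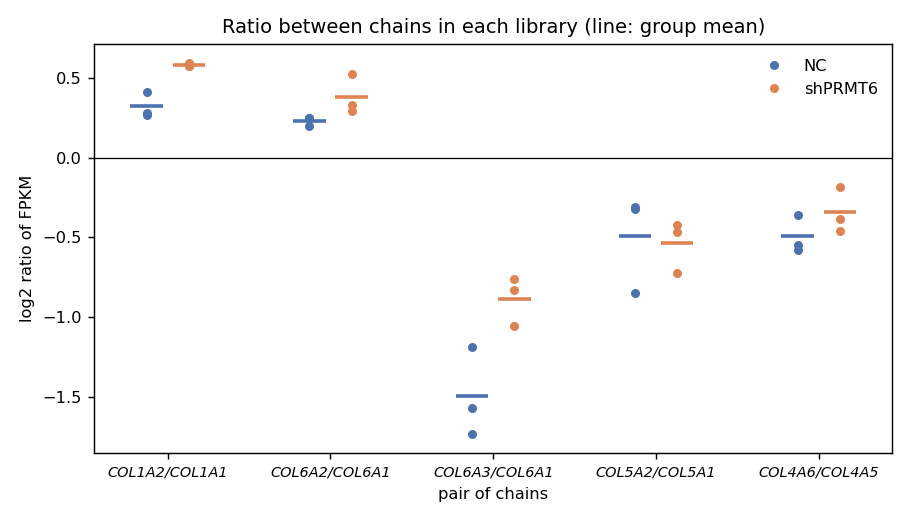
Log2 ratio of FPKM between partner chains in each library, with points for libraries and lines for group means, NC in blue and shPRMT6 in orange. The groups do not overlap for COL1A2/COL1A1, COL6A2/COL6A1 and COL6A3/COL6A1 and overlap for COL5A2/COL5A1 and COL4A6/COL4A5.

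The genes that modify, export, trim, cross-link, bind and degrade collagen were read beside the family. Of this list of 53 genes, 46 were tested, of which 6 rose and 5 fell (23.9%, beside the 18.6% background), with a median log2 fold change of 0.04. In the propeptide class, the enhancer of C-propeptide removal PCOLCE2 rose from 57.8, 51.4 and 56.9 CPM in NC to 95.7, 98.3 and 94.2 CPM in shPRMT6 (0.80, SE 0.068, adjusted p = 0.00119). Its relative PCOLCE went the other way, from 101, 90.3 and 101 CPM to 71.3, 68.2 and 65.5 CPM (-0.51, adjusted p = 0.00545), and 16.6% of its exon bases overlap an antisense gene. ADAMTS14, which removes N-propeptides, rose at a low level (0.89, adjusted p = 0.0491), a call that was lost when any 1 of the 6 libraries was left out.

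Of the genes for enzymes that break down collagen, MMP1, the interstitial collagenase, rose (0.92, SE 0.064, adjusted p = 0.000658). MMP1 had 53.4, 48.8 and 49.7 CPM in NC and 97.5, 97.4 and 93.3 CPM in shPRMT6. Of its exon bases, 7.61% overlap WTAPP1 on the other strand. MMP2, a gelatinase that also cuts type IV collagen, rose by a smaller amount (0.30, adjusted p = 0.00502), and MMP14, the membrane-bound activator of MMP2, fell slightly (-0.20, adjusted p = 0.0276). The MMP14 call was lost without NC 3, shPRMT6 1, shPRMT6 2 or shPRMT6 3, with DESeq2, and with trends on GC content and length removed. CTSK and PEPD did not pass, and MMP8 and MMP13 had too few counts to test.

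Among the 12 hydroxylases and their partners, PLOD1, a lysyl hydroxylase, fell (-0.28, adjusted p = 0.0213) and the other 11 did not pass, among them P4HA1 at -0.04 and P4HB at -0.10. Without NC 1, NC 3, shPRMT6 1, shPRMT6 2 or shPRMT6 3, PLOD1 did not pass. Of the chaperones and glycosyltransferases, COLGALT1, which attaches galactose to hydroxylysine, rose (0.23, adjusted p = 0.0418) but did not pass when any 1 of the 6 libraries was left out, and SERPINH1, the collagen chaperone HSP47, had a value of -0.16 that did not pass (adjusted p = 0.191). Of 5 export genes, SEC24D, a coat protein of the vesicles that leave the endoplasmic reticulum, rose (0.31, adjusted p = 0.0217), though not without NC 3, shPRMT6 1, shPRMT6 2 or shPRMT6 3. Of 5 lysyl oxidases, which cross-link collagen, LOXL2 fell from 776, 734 and 765 CPM to 553, 541 and 537 CPM (-0.48, SE 0.047, adjusted p = 0.00178), whereas LOX, at 1391 to 1599 CPM in NC, did not pass (-0.18, adjusted p = 0.206). Of the 8 receptors tested, ITGA1, the α chain of a collagen-binding integrin, fell from 29.9, 34.9 and 30.7 CPM to 19.4, 15.9 and 17.8 CPM (-0.85, SE 0.111, adjusted p = 0.00427). DDR2 had a value of 1.06 that did not pass and rested on shPRMT6 3, at 195 CPM beside 39.5 to 52.7 CPM in the other 5 libraries.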

How the data were processed

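U87 cells with a scramble shRNA (NC, 3 libraries) or a PRMT6 shRNA (shPRMT6, 3 libraries) were sequenced as RNA. The authors deposited raw counts per gene and FPKM values for each library. The submitters' processing notes name HISAT2, HTSeq 0.13.5 and GRCh38. The annotation, the strand setting and the FPKM tool are not given in the sources used here. Groups were taken from the labels. Members and lists were chosen with earlier results of these data known. The genes named in full were the collagens past the threshold, COL12A1, the 5 with the highest mean FPKM and the partner chains, plus up to 12 handling genes with the smallest p among those past the threshold. Other members and the markers are given by their values.

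Counts were tested with edgeR 4.0.16 (R 4.3.3; TMM, filterByExpr, quasi-likelihood test, SE taken as the log2 fold change over the root of F) over 18106 genes, with Benjamini-Hochberg adjustment and a threshold of 0.05. Totals ranged from 56388161 to 75887696 counts. Libraries of a group differed beyond counting error (chi-square divided by its degrees of freedom, 53.0 to 86.3). Floors of 3 counts cover counting error only. Sums and ratios were compared by exact permutation (SciPy 1.17.1). Alternatives were other scalings, filters and thresholds, DESeq2 1.42.0, limma 3.58.1 on log2(FPKM + 1) and log2(FPKM + 0.1), a replicate block, removal of GC and length trends, and leaving out each library. The code was tested on simulated data. Symbols were found for 60588 of 60612 identifiers, and lengths, GC content and overlaps came from GENCODE 29. GC content is that of the longest transcript of a gene.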

Additional observations from a re-analysis of the deposited data

How the results depend on the processing

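The 14 collagens named in full kept their direction in each alternative fit that tested them. COL1A2, COL5A1, COL4A6, COL12A1 and COL15A1 also stayed past the threshold throughout. The number of changed collagens was 6 (4 higher) with limma on unfiltered log2(FPKM + 1), 6 (4 higher) at an adjusted p under 0.01 and 6 (4 higher) under the rule of the methods, and 7 to 10 (5 to 8 higher, 2 to 3 lower) when 1 library was left out. With the trends on GC content and length removed, 1 collagen fell. The median of the collagens was 0.0058 with unfiltered limma, which brings in genes at or near 0. Changed handling genes numbered 4 with that fit, 6 at an adjusted p under 0.01, 1 under the rule of the methods and 6 to 12 with 1 library left out, against 11. Over all genes, in the same order, 1073 (1.77% of those tested), 1320 of 18106 and 1072 (5.92%) were past, against 3362 (18.6%). With 1 library left out, 1755 to 3183 were past (9.25% to 16.9%). PRMT6 was at -0.47 (adjusted p = 0.158) with unfiltered limma and from -1.0004 to -0.73 with 1 library left out, and its main value of -0.87 misses both stricter rules. The COL5A2 to COL5A1 difference ran from -0.22 to 0.0486 with 1 library left out and changed sign without NC 2 (0.0402), NC 3 (0.0486) or shPRMT6 1 (0.0480). The cause of these differences was not tested.

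Replicate numbers did not pair the samples: deviations of samples with the same number correlated at -0.02, -0.02 and -0.03. For no number were the NC and the shPRMT6 sample each the best partner of the other. The fit with the replicate block gave 8 changed collagens (29.6% of those tested), 6 changed handling genes and 1858 changed genes (10.3%). PRMT6 was at -0.88 there (adjusted p = 0.0803, not past). COL4A5, COL4A3 and COL17A1, and of the handling genes PLOD1, SEC24D, MMP14, COLGALT1 and ADAMTS14, were not past under the replicate block. Depth limits the 17 collagens not tested and those with few counts, and 3 libraries a group limit sums and ratios to an exact p of 0.1.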
